A study of Homo sapiens with 4 samples.

Results

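Control SNU-668 cells were examined on their own, through the proteins that their ribosomes were making. SNU-668 is an established human gastric cancer cell line; the cells used are described as erastin-resistant, but their library names carry RLS3, so which compound they resist is uncertain. Erastin is an inhibitor of cystine import. They carried a control shRNA, and their genotype is labelled WT. The description rests on the footprint library of these cells, 1 of the 4 libraries of the series, and on its 13934 protein_coding genes of the 16692 genes listed; the RNA library of the same cells was used only for a note on strand. With 1 library per assay there was no replicate, so every interval given is a 95% interval of counting error in that library, no test was made and no spread between cultures could be measured. Reads amplified by PCR were not marked with molecular identifiers and need not be separate molecules.

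In ribosome profiling, RNase removes the mRNA that is not covered by ribosomes, and the short protected fragments, the footprints, are sequenced. Footprints thus count ribosomes at work on each coding sequence: a long protein collects more of them than a short one made at the same rate. Epithelial cancer cells can pass into a mesenchymal state, in which junction proteins, keratins and epithelial splicing factors give way to vimentin, N-cadherin, fibronectin and other matrix proteins, under transcription factors of the SNAI, ZEB and TWIST families.

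The library held 3795680 footprints, of which 3794150, or 99.96%, were counted in protein_coding genes. Levels are given as footprints, as counts per 1000000 of the column total (CPM), or as the deposited footprint RPKM. The deposited RPKM also divides by length, and its values imply a depth of 7015580 in place of the column total. RPKM is therefore not CPM divided by length. Ratios between genes use RPKM. Many lists of members use footprints, which favour genes with more counted bases and can give another order than RPKM. At least 1 footprint was counted in 12033 genes. A minimum of 100 footprints (26.3 CPM, with a counting interval of 81.4 to 121.6 footprints) was reached by 5284 of 13934 genes, or 37.9%, and 3362 genes, or 24.1%, had 3 or fewer. Counts of list members at the minimum are to be read beside the 37.9%. All lists were chosen with earlier results of these data known, so such counts describe the genes chosen and are not a test. The median gene had 50 footprints and 6.48 RPKM. The 1901 genes listed at 0 include genes that dividing cells use, such as CCT3 and PDIA3, so a 0 is given only as listed; a count of 0 is taken to allow up to 3 footprints, or 0.790 CPM, a one-sided limit that differs from the upper end of the Poisson intervals.

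Counted in footprints, which favour genes with more counted bases, extracellular matrix genes led in the control cells. In shares of summed RPKM, collagens held 0.572% and secreted matrix glycoproteins 1.62%, against 5.41% for cytosolic ribosomal proteins. THBS1, thrombospondin-1, a secreted adhesive glycoprotein that can activate latent TGF-beta, led with 81052 footprints, 21354 CPM (21207 to 21501), or 2.14% of the library. COL6A3, a chain of the beaded-filament collagen VI, came next with 50539 footprints, 13315 CPM (13199 to 13432). CALR, the calcium-binding lectin chaperone of the endoplasmic reticulum (ER), held 29625 footprints and COL1A2, a chain of fibrillar collagen I, 24916. The intervals of these 4 genes did not overlap.

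The next leaders were a glycolytic enzyme and filament proteins. ENO1, enolase of glycolysis, had 24101 footprints, and VIM, the intermediate filament protein vimentin, had 23326. ACTG1, a cytoplasmic actin, had 20889, FN1, fibronectin, 20180, and MYH9, the heavy chain of non-muscle myosin II, 15950. COL6A2, another collagen VI chain, closed the first 10 with 15039. Together these 10 genes held 8.05% of all footprints (8.02 to 8.08), the leading 30 held 13.8%, and the leading 100 held 24.6%. As few as 524 genes, or 3.76%, held 50% of the protein_coding footprints.

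Among the leading 30 genes, 8 were matrix proteins, 5 were glycolytic enzymes and 5 were ER folding proteins. The matrix genes were THBS1, COL6A3, COL1A2, FN1, COL6A2, LAMC1, SPARC and COL6A1, with 226229 footprints between them, or 5.96% of the library. The ER folding proteins were CALR, HSP90B1, PPIB, HSPA5 and PDIA6, and the glycolytic enzymes ENO1, ALDOA, PKM, GAPDH and PGK1. The rest included APP, the amyloid precursor protein, with 14434 footprints, the histone HIST1H3B with 12659, KRT81, a hair keratin, with 10995, the elongation factor EEF2 with 10543, the calcium-binding S100A6 with 9159 and the splicing factor HNRNPA2B1 with 8778. From rank 13 to rank 15, LAMC1 (12475), ALDOA (12392) and HSP90B1 (12213) were not separated by their counting intervals. The same held for each neighbouring pair from RPN2 (11356) through PPIB, SPARC, HSPA5, PKM and KRT81 to GAPDH (10913).

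**Figure D1:**
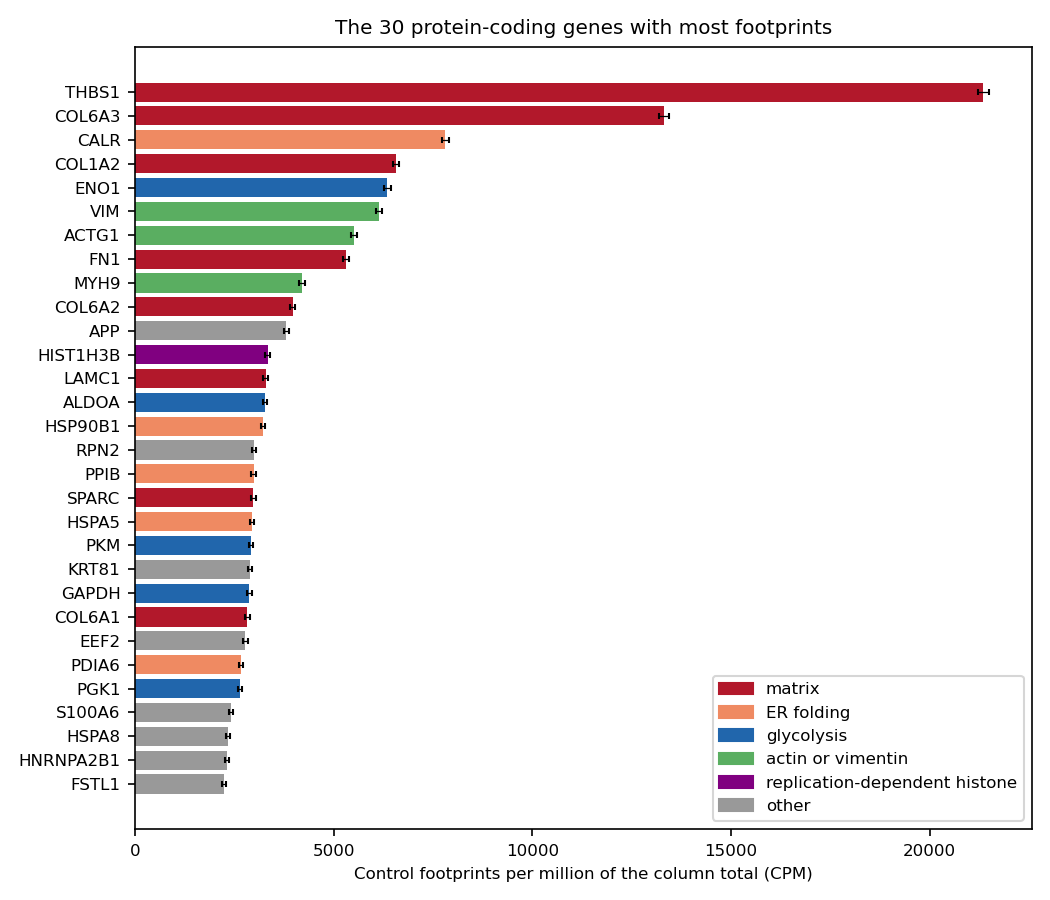
Footprints per 1000000 of the column total (CPM, linear axis from 0) for the 30 protein_coding genes with most footprints in the control library; bars are coloured by the class of the gene and whiskers are exact 95% Poisson intervals. THBS1 at 21354 CPM and COL6A3 at 13315 CPM stand clear of the others, and 8 of the 30 bars are matrix genes.

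Per length, the order was different, and many genes with few counted bases came forward. S100A6 had 6129 RPKM, HIST1H3B 5141 and ACTG1 5030. COX8A, a small subunit of cytochrome oxidase, had 3966, TMSB10, an actin-binding thymosin, 3710, the ribosomal protein RPL37 3689, CALR 3537 and THBS1 3346. HIST1H2AM stood at 25126, but on an implied counted length of only 47 bases, and TMSB10 rested on 75. The implied length was 592 bases for ACTG1, 414 for PKM (3808 RPKM) and 241 for ANXA5 (2841 RPKM), against 1194 for CALR. A high place per length therefore need not mean a short protein. THBS1 held 11th place per length, whereas COL6A3 (754.6 RPKM) fell to 125th, since its 50539 footprints were spread over 9547 counted bases.

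Markers of the mesenchymal state were high and those of epithelium low. Of 20 genes of the mesenchymal state, 18 had 100 or more footprints, against 37.9% of all protein_coding genes, and their median was 234 RPKM against 6.48. VIM had 2712 RPKM, SPARC, a collagen-binding matrix glycoprotein, 2293 and TGFBI, a TGF-beta-induced adhesion protein, 1695. CD44, the hyaluronan receptor, was at 716 RPKM (7531 footprints), the receptor kinase AXL at 262 (4429), CDH2, N-cadherin, at 114 (2058) and CDH11, a mesenchymal cadherin, at 30.3 (398). The surface proteins THY1 (701 footprints) and NT5E (973), the caveolar coat protein PTRF (3731), the growth factor TGFB2 (1728) and the matrix cross-linker LOX (629) were also above the minimum. The list was not uniform: CAV1, the caveolin that partners PTRF, had 3 footprints and S100A4 had 15.

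Of 8 transcription factors of the epithelial-mesenchymal transition, 1 reached the minimum, or 12.5% against 37.9% of all protein_coding genes. Their medians of 79 footprints and 11.1 RPKM were nevertheless above the 50 and 6.48 of all genes. SNAI2, which represses E-cadherin, had 168 footprints (32.1 RPKM). SNAI1 had 94, TWIST2 90, ZEB2 80, FOXC2 78 and TWIST1 56, each above the median gene's 50 footprints. Per length, ZEB2 at 3.06 RPKM was below the 6.48 of all genes. PRRX1 had 9. ZEB1 had 2, but on an implied counted length of only 284 bases, against 3726 for ZEB2, so its level is uncertain. The number of factors passing depends on the minimum: 6 of 8 had at least 20 footprints and none had 500.

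Epithelial genes were mostly low. Of 12 junction and surface genes analysed, 1 reached 100 footprints and 5 had 3 or fewer, against 37.9% and 24.1% of all protein_coding genes. PKP3, a desmosomal plakophilin, had 259 footprints and PKP2 had 59, whereas CLDN1 had 12, CLDN4 8, MUC1 6 and DSP, desmoplakin, 5. EPCAM, the epithelial adhesion molecule, and OCLN, occludin of tight junctions, were listed at 0. The whole list summed to 359 footprints, and 12 further genes of it, CDH1 among them, were not analysed here. Of 8 epithelial regulators none reached 100: KLF5 had 29, ELF3 10, and the epithelial splicing factors ESRP1 and ESRP2 were listed at 0.

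Among the simple keratins of glandular epithelium, KRT18 had 462 footprints (60.9 RPKM), but its usual partner KRT8 had 17 (1.52 RPKM). KRT7, KRT20 and KRT19 had 16, 7 and 4. The treatment of reads matching several places is not given here, so the levels of KRT18 and KRT8 are uncertain. VIM was 44.5 times KRT18 in RPKM (40.6 to 48.8). KRT81, known from the hair shaft, had 1075 RPKM, 17.6 times KRT18 (16.1 to 19.4), and KRT80 had 59.9. The close relatives of KRT81 were low, with 55 footprints for KRT86 and 15 for KRT83; reads shared by these near-identical genes could be split by the counting, so the assignment to KRT81 is uncertain.

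The gastric origin given by the labels was checked against gastric markers, which were low. None of 9 gastric mucosa genes analysed had 100 footprints, against 37.9% of all protein_coding genes. The endodermal transcription factors GATA6, FOXA2 and GATA4 had 75, 29 and 19. GATA6 was thus above the median gene's 50 footprints, but at 6.19 RPKM it was just below the median of 6.48. ANXA10, a gastric annexin, had 11, the trefoil peptide TFF2 3 and the protease CTSE 1, and CLDN18 and the mucin MUC6 were listed at 0. The other 17 genes of that list, which include the best known secreted products of the stomach, were not analysed here. The intestinal genes CDH17 and VIL1 were listed at 0.

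Of 15 fibroblast genes analysed, 10 reached the minimum, most of them collagens. That was 66.7%, against 37.9% of all protein_coding genes. A further gene of the list, DCN, was not analysed here. PDGFRB (193) and PDGFRA (116), receptors of fibroblast growth signals, passed the minimum, as did the matrix protein FBLN1 (449). FAP had 36, PDPN 12, POSTN 11 and LUM 2, and COL3A1 was listed at 0. Markers of other lineages were mostly low, each list with 1 or 2 exceptions. TAGLN (556) and SMTN (662) stood among 9 smooth muscle genes in which ACTA2 had 21, DES 12 and MYH11 1. LAPTM5, a lysosomal membrane protein of blood cells, had 1316 footprints and CD68 762, while PTPRC, CD14 and ITGAM, which define leukocytes, were listed at 0. TIE1 had 1009 with VWF at 13 and KDR at 0, NCAM1 369 with SYP at 0, and SERPINA1 106 with ALB at 0. A bulk library cannot tell a few cells with many ribosomes on a gene from many cells with few.

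**Figure D2:**
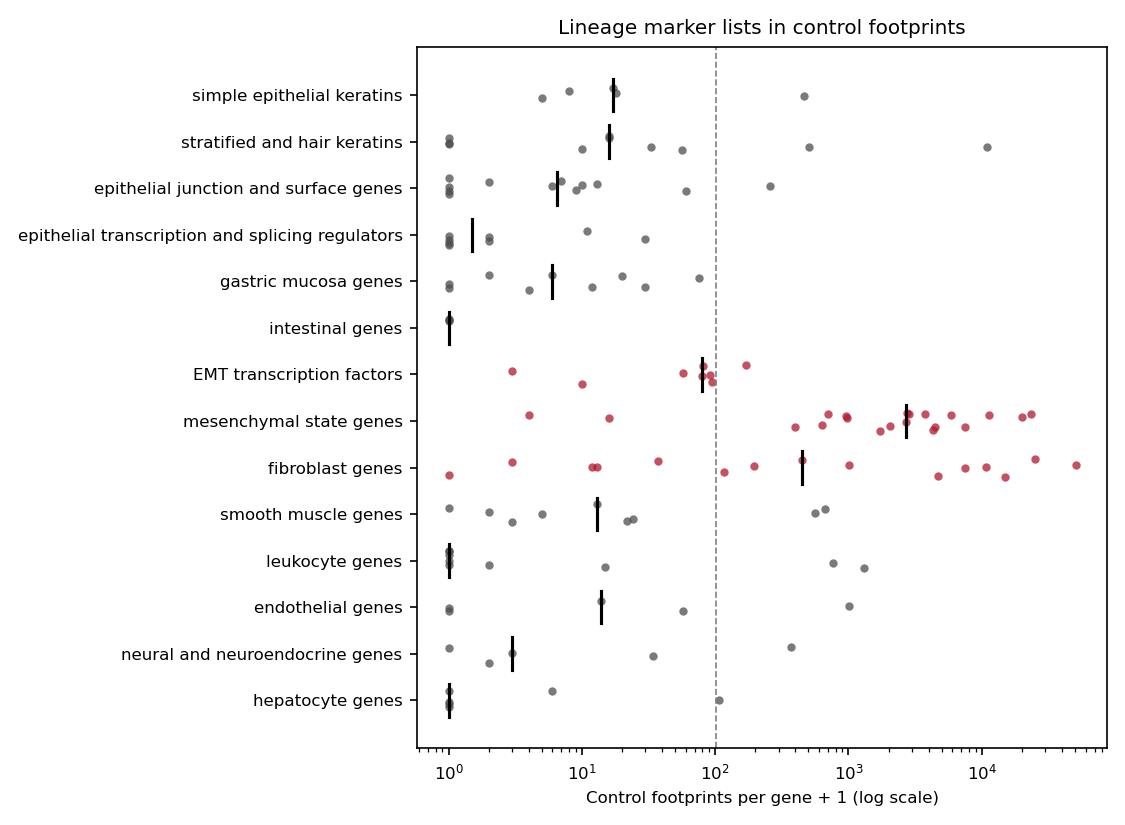
Control footprints plus 1 (log axis) for every analysed member of 14 lineage marker lists; each point is a gene, black ticks are list medians and the dashed line marks 100 footprints. In the mesenchymal list 18 of 20 points lie right of the line, against 1 of 12 in the epithelial junction list and 0 of 9 in the gastric list.

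Collagen chains and secreted matrix glycoproteins together held 301592 footprints over 71 genes, 7.95% of the library (7.92 to 7.97). Collagens took 3.46% and 16 of 32 chains reached 100 footprints, or 50% against 37.9% of all protein_coding genes. The typical chain was nevertheless low, at a median of 2.38 RPKM, below the 6.48 of all genes. In shares of summed RPKM, which remove the weight of length, collagens held 0.572% and the glycoproteins 1.62%, against 3.46% and 4.49% of footprints.

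Chains that assemble into the same collagen had unequal footprint levels, with collagen I as the extreme case. The intervals below hold counting error only. Ribosomal proteins, made in equal numbers in textbook accounts, also differed widely here, such as RPL37 at 3689 RPKM and RPS10 at 9.33 on 978 counted bases. Whether the collagen ratios reflect synthesis is therefore uncertain and was not tested. The 3 chains of collagen VI were close: COL6A3 was 1.49 times COL6A1 in RPKM (1.46 to 1.52) and COL6A2 1.38 times (1.35 to 1.41). COL5A1 was 1.27 times COL5A2 (1.23 to 1.32), and in the basement membrane collagen IV COL4A2 was 2.47 times COL4A1 (2.32 to 2.63). COL1A2, by contrast, had 878.9 RPKM against 31.8 for COL1A1, a ratio of 27.7 (26.0 to 29.5), on 24916 and 1001 footprints. Textbook collagen I holds a pair of chains from COL1A1 for each from COL1A2. COL8A1 (147 RPKM), COL18A1 (87.7), COL7A1 (46.2) and COL12A1 (43.6) were also made, while COL2A1 had 2 footprints and COL3A1, COL9A2 and COL11A2 were listed at 0.

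Among the glycoproteins 25 of 39 reached 100 footprints, and THBS1 alone held 47.6% of the list. Without it, the share of the list was 2.35% in place of 4.49%. THBS1 was 7.96 times FN1 in RPKM (7.84 to 8.08), and its relative THBS2 had 18 footprints. For laminins, the heterotrimers of basement membranes, LAMC1 had 413 RPKM and LAMB1 142, a ratio of 2.90 (2.81 to 2.99). LAMA4 (63.2 RPKM) was the leading alpha chain, with LAMA5 at 2.92. LAMB3 was at 184 although its usual partner LAMA3 had 18 footprints. CYR61, a matricellular ligand of integrins, had 704 RPKM, IGFBP7 349 and TNC, tenascin-C, 58.9. The elastic fibre protein FBN1 was at 29.3.

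**Figure D3:**
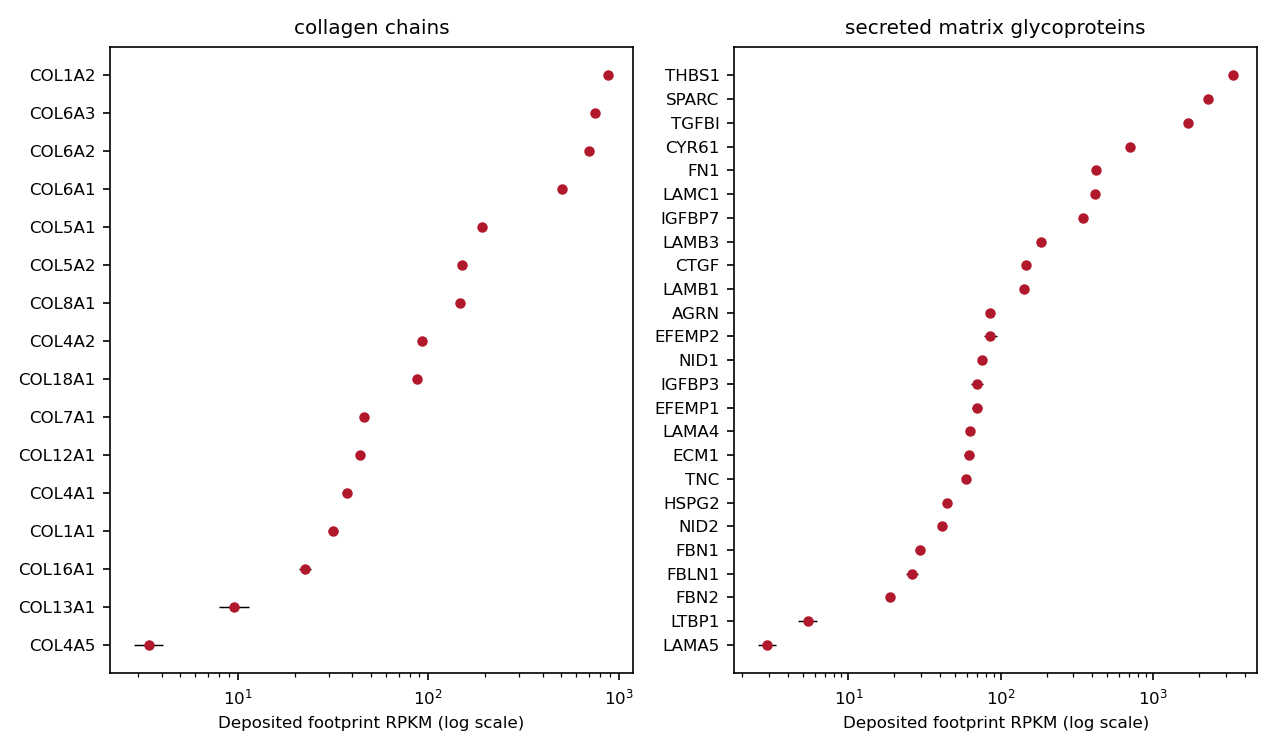
Deposited footprint RPKM (log axis) of the collagen chains (left) and secreted matrix glycoproteins (right) with 100 or more control footprints; points are the library's values and lines are counting intervals. COL1A2 (878.9 RPKM) and COL1A1 (31.8 RPKM) lie far apart, while the 3 chains of collagen VI lie near each other.

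Enzymes that mature procollagen took 1.45% of the library, and 16 of 21 had 100 footprints or more. Their list was written after values were seen, so the count only describes the genes chosen. PPIB, the cyclophilin that isomerises prolines in procollagen, had 11324 footprints (2731 RPKM), the collagen chaperone SERPINH1 7285 (873 RPKM), and the lysyl hydroxylases PLOD2 and PLOD1 7838 and 5915. LOXL2, which cross-links matrix fibres, had 3734, and the prolyl hydroxylase chains P4HA2 and P4HA1 had 3578 and 2473. P4HB, their shared partner, had 77 footprints on 22 counted bases, and thus 499 RPKM. LOXL4 and P4HA3 were listed at 0. PPIB and SERPINH1 also belong to the ER folding proteins, as several lists share members.

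Proteases and inhibitors of the matrix took 0.641%, and 14 of 20 reached the minimum. TIMP3, a matrix-bound inhibitor of metalloproteases, led with 4325 footprints (1070.3 RPKM), ahead of the aggrecanase-family protease ADAMTS1 with 3618 and the gelatinase MMP2 with 2684. MMP14, which activates MMP2, had 1545. The collagenases MMP1 and MMP13 had 43 and 68, and MMP7, usual in epithelium, had 19. Of 20 integrin chains 7 reached 100, close to the 37.9% of all genes: ITGA3 (448 RPKM) and ITGA6 (180), which form laminin receptors, ITGA5 (268), the fibronectin receptor, ITGB1 (239), ITGAV (69.0), ITGB5 and ITGA11. ITGA5 was 1.12 times ITGB1 (1.07 to 1.17). ITGB4 of epithelial hemidesmosomes had 49 footprints.

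The secretory pathway was loaded in the same library. ER folding proteins took 2.44% of footprints, 13 of 17 reached 100, and their median was 174 RPKM. CALR had 3537 RPKM, PDIA6, a disulfide isomerase, 1050.2, HSP90B1, the ER member of the HSP90 family, 900 and HSPA5, the BiP chaperone, 836. CANX, PDIA3 and UGGT1, which act with CALR on glycoproteins, were listed at 0. Of 27 proteins of ER translocation and N-glycosylation 26 reached 100 footprints, but that list was written after values were seen and its count only describes the genes chosen. RPN2, of the oligosaccharyltransferase, had 11356 (934 RPKM), RPN1 4062, DDOST 3891 and STT3A 3615, while SPCS2 of the signal peptidase had 6.

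The actin cytoskeleton took 3.25% of footprints, close to the collagens, and 29 of 35 genes reached 100, with a median of 191 RPKM. ACTG1 had 5030 RPKM and ACTB 2667, a ratio of 1.89 (1.83 to 1.94); their coding sequences are near-identical, so this split is uncertain. CFL1, which severs filaments, had 2288 RPKM and PFN1, which feeds monomers to growing ends, 2462. The cross-linkers ACTN4 and ACTN1 were at 395 and 370. TMSB4X and RDX were listed at 0. Lamins were led by LMNA with 4833 footprints, and tubulins by TUBB with 7549 and TUBB4B with 5422, while TUBA1B was listed at 0. Annexins and S100 proteins took 0.770% of footprints and 2.08% of summed RPKM. S100A6 had 6129 RPKM, ANXA5 2841, S100A10 1621 and ANXA1 784. ANXA2, the usual partner of S100A10, had 108 RPKM, from 185 footprints on 244 counted bases.

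Glycolytic enzymes took 2.49% and had a median of 264 RPKM, with 13 of 18 at the minimum or above. PKM, pyruvate kinase, had 3808 RPKM, ENO1 2759, GAPDH 2152, ALDOA 1498, TPI1 1489 and PGK1 1214. Among paralogs, HK1 was 2.99 times HK2 in RPKM (2.77 to 3.23), and LDHB was 3.07 times LDHA (2.73 to 3.44), with only 125 counted bases behind LDHA. PGAM1 and ALDOC were listed at 0. Genes known to be induced by hypoxia took 0.495% of footprints and 0.320% of summed RPKM, with 12 of 15 at the minimum: SLC2A1, the glucose transporter, had 4338 footprints and CA9, a surface carbonic anhydrase, 2019, whereas ANGPTL4 had 2.

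Nuclear-encoded subunits of the respiratory chain and ATP synthase took 1.17%, with 53 of 69 at 100 or above and a median of 145 RPKM. ATP5B had 6011 footprints, COX8A 2671, ATP5G3 2611 and NDUFA4 1722. These are short proteins on the whole, and in summed RPKM their share was 3.50%. The 13 genes of mitochondrial DNA together had 2555 footprints, or 0.0673%, led by MT-CO1 with 948 and MT-CYB with 453; they are translated by mitochondrial ribosomes, whose recovery was not tested.

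**Figure D4:**
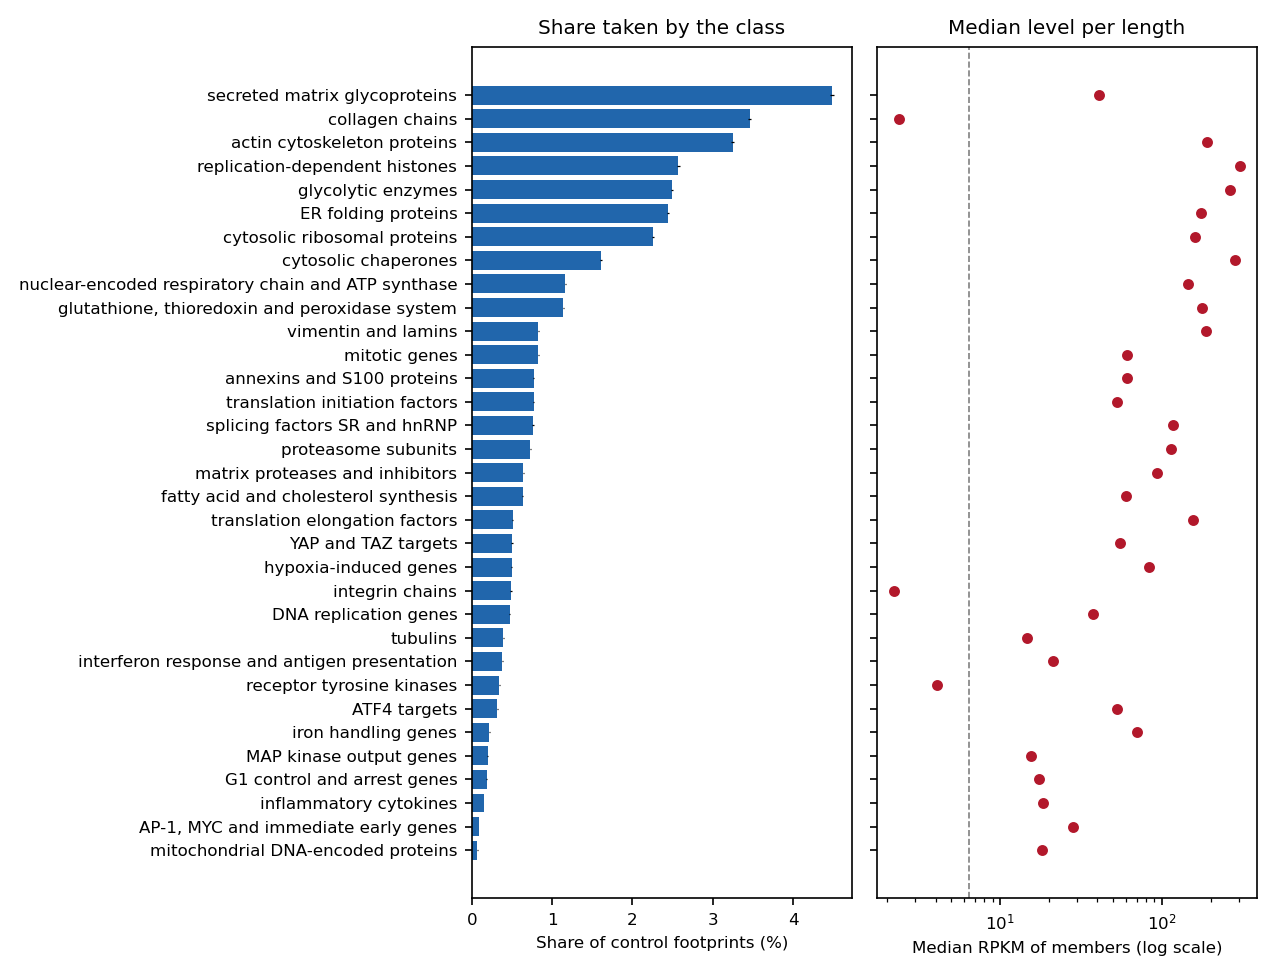
Share of control footprints in percent (left, linear axis from 0, exact 95% intervals) and median deposited RPKM of the analysed members (right, log axis, dashed line at the 6.48 RPKM of all protein_coding genes) for 33 gene classes. Collagens take 3.46% of footprints with a median of 2.38 RPKM, while replication-dependent histones take 2.57% with a median of 303 RPKM.

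The cells were making the proteins of a dividing population. Replication-dependent histones, which are made in S phase, took 2.57% of footprints and 9.92% of summed RPKM, 44 of 60 reached 100 and their median was 303 RPKM. HIST1H3B led with 12659 footprints, ahead of HIST1H2AM (8285), HIST1H4H (6350) and HIST1H3F (5386). Histone genes are near-identical copies, so the summed footprints are better defined than any member. The summed RPKM includes HIST1H2AM at 25126 RPKM on only 47 counted bases, so the 9.92% is uncertain. Of 30 mitotic genes 29 reached the minimum, with a median of 60.5 RPKM. TOP2A, topoisomerase II alpha, had 4544 footprints, ANLN, anillin of the cleavage furrow, 2574, and TPX2 and CENPF 2480 each. Of 30 DNA replication genes 23 reached it, led by the sliding clamp PCNA with 2994, MCM4 with 1575, MCM7 with 1443 and MCM6 with 1359, while RRM1 had 2 on a short counted length.

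In G1 control, CCND1, cyclin D1, had 3670 footprints (764 RPKM) and its kinase CDK6 had 1505 (233 RPKM), 0.305 times CCND1 in RPKM (0.287 to 0.324). RB1, the substrate of that kinase, had 266. Of the inhibitors, CDKN1B had 212, CDKN1A 194, CDKN2A 6 and CDKN2B 3. The apoptosis genes BBC3 and BAX had 4 and 77.

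The translation machinery was uneven. Cytosolic ribosomal proteins took 2.25% of footprints and 5.41% of summed RPKM, with a median of 161 RPKM. They are made in equal numbers in textbook accounts, yet 47 of 75 reached 100 footprints (62.7%, against 37.9% of all protein_coding genes). Of the 75, 18 had 3 or fewer (24%, against 24.1%) and 12 were listed at 0. RPL28 had 8093, RPL3 7329, RPL37 6703 and RPLP2 6217. Among those listed at 0 were RPL7, RPL14, RPL15, RPS3, RPS20 and RPS27, and RPS2 and RPL21 had 3 each. Many have processed copies elsewhere in the genome, and the treatment of reads matching several places is not given here. Among elongation factors EEF2 had 10543 footprints (597 RPKM), EIF5A 5200 (1300 RPKM), EEF1A2 1983 and EEF1A1 602. EEF1A2 was 3.29 times EEF1A1 in RPKM (3.0 to 3.6), and EEF1B2 was listed at 0; EEF1A1 and EEF1A2 are close paralogs and the split is uncertain. Of 39 initiation factors 31 reached the minimum, led after EIF5A by EIF3I (4695) and EIF3B (2822), while the scaffold EIF4G1 was listed at 0 and EIF4G2 had 1729.

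Messenger RNAs of ribosomal proteins and elongation factors are known to begin with a 5' terminal oligopyrimidine tract, through which mTOR signalling sets their translation. The RefSeq start sites (GRCh38.p14) were read for a C followed by 4 or more bases that are each C or T, on the strand of the gene. Such a start was found in 42 of 61 matched ribosomal protein genes (68.9%), in 2 of 4 elongation factors, in 3 of 56 matched matrix genes (5.36%) and in 592 of 11003 matched protein_coding genes (5.38%). It was found in 6 of 76 matched genes among the leading 100 (7.89%). The sequences below are of highly translated ribosomal protein genes with and without such a start, of EEF2, which has it, and of leading matrix and filament genes. Each runs 5' to 3' from 10 bases before the start site to 20 from it. A pyrimidine run at the start is in capitals where it meets the rule.
RPL28, chr19:55385922-55385951, plus strand: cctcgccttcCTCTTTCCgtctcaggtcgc
RPLP2, chr11:809957-809986, plus strand: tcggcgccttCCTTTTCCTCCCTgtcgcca
RPS6, chr9:19380217-19380246, minus strand: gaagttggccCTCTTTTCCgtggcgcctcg
EEF2, chr19:3985444-3985473, minus strand: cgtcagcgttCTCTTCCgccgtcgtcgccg
RPL3, chr22:39319604-39319633, minus strand: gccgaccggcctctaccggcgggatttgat
THBS1, chr15:39581069-39581098, plus strand: ccgccttgccagccgctgcgcccgagctgg
COL6A3, chr2:237414145-237414174, minus strand: tttggagctcagtcttccaccaaaggccgt
VIM, chr10:17228231-17228260, plus strand: atcgtgatctgggaggcccacgtatggcgc

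RPL28, RPLP2, RPS6 and EEF2 begin with such runs, and THBS1, COL6A3 and VIM do not. RPL3, with 7329 footprints, begins with CTCT and then an A at the RefSeq start, a pyrimidine run too short for the rule. A match is a description of these letters and not of the start sites used in these cells.

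Other housekeeping classes were covered more evenly. Of 25 cytosolic chaperones 24 reached 100, with HSPA8 at 8858 footprints, HSP90AB1 at 6845 and the small heat shock protein HSPB1 at 5996, and CCT3 listed at 0 although 7 other CCT-ring genes ranged from 732 (TCP1) to 4285 (CCT7). Of 34 proteasome subunits 28 reached it, led by PSMD2 with 4429 and PSMA7 with 3503. Of 30 SR and hnRNP splicing factors 26 did, led by HNRNPA2B1 with 8778 and HNRNPU with 4095, while HNRNPA1 had 45.

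Of 20 receptor tyrosine kinases 8 reached 100 footprints, close to the 37.9% of all genes. AXL, the receptor of GAS6, had 4429, EGFR 3529, MET, the receptor of hepatocyte growth factor, 2173 and EPHA2 1353. EGFR was 1.71 times MET in RPKM (1.62 to 1.80). ERBB2 had 3 footprints, ERBB3 1, and FGFR2, which is amplified in some gastric cancers, was listed at 0. Of 14 genes of the YAP and TAZ pathway 12 reached the minimum: CYR61 had 5364, CRIM1 3288, the clotting initiator F3 1834 and CTGF 1014, and YAP1 itself 389. Among MAP kinase outputs 7 of 15 did, or 46.7% against 37.9% of all genes, with PHLDA1 at 1309 and DUSP4 at 442 but SPRY2 at 28 and SPRY4 at 16. JUN had 1117 and MYC 713, while FOS had 3 and EGR1 12.

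A few cytokines carried most of the footprints of their list. The chemokine IL8 had 2185 footprints (1276 RPKM), CSF1 1220, IL1B 858, and IL6 357, and 6 of 16 genes of the list reached 100, close to the 37.9% of all genes. CCL2 had 13 and CSF3 1. In antigen presentation B2M, the light chain of class I molecules, had 917, and the peptide transporter TAP2 had 827. BST2, an interferon-induced membrane protein, had 3246, whereas the interferon-induced MX1 had 26 and IFIT1 58.

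Systems that bear on ferroptosis, an iron-dependent cell death by lipid peroxidation, were read for their level alone, since no parental sensitive cells were analysed here. Of 26 genes of the glutathione, thioredoxin and peroxidase system 25 reached 100 footprints, and the median was 176 RPKM. TXN, thioredoxin, had 2751 RPKM, SOD1, which removes superoxide, 2520.3, the peroxiredoxin PRDX1 1311 and the quinone reductase NQO1 731. GPX4, which reduces lipid peroxides, had 1313 footprints (250 RPKM), SLC7A11, the cystine transporter that erastin blocks, 593 (85.5 RPKM), its partner SLC3A2 2070, and AIFM2, known as FSP1, 305. SOD2 had 51. For iron, FTL, the ferritin light chain, had 3041 and TFRC, the transferrin receptor, 721, and the heavy chain FTH1 was listed at 0. Of 22 genes driven by ATF4 14 reached 100, or 63.6% against 37.9% of all protein_coding genes. They were led by PHGDH of serine synthesis with 2791 and STC2 with 1995, while CHAC1, which degrades glutathione, had 22 and DDIT3 30. Of 26 lipid synthesis genes 23 did, led by ACLY with 3273 and FASN with 3070.

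The RNA library of the same cells could not be set against these footprints. It held 554075 counts, and the 30 leading footprint genes had 902 of them on their own strand, or 0.163%, from 0 to 98 per gene. For 10 of the 30, another gene is listed on the opposite strand of the span: those opposite genes held 68113 RNA counts against 264 for the leading genes themselves. VIM had 47 RNA counts and its opposite gene RP11-124N14.3 had 11894, and GAPDH had 63 against 38282 for RP5-940J5.9. Antisense genes as a class held 46.0% of RNA counts and no footprint, and 2278 of the 5284 genes with 100 or more footprints, or 43.1%, had 0 RNA counts. The strand setting of the counting is not given here, and no level of mRNA or translational efficiency was drawn from that library.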

How the data were processed

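Whole-number read counts per gene were deposited by the authors for footprint and RNA libraries, with hg19 spans and biotypes, and the authors also deposited footprint RPKM; both units are named per the file headers. Per the submitters' processing notes, FastQC, cutadapt, Bowtie, STAR and hg19 were used; roles, versions, the counter, its strand setting and the treatment of multi-mapping reads are not given in the sources used here. Groups came from the genotype and title labels. Counts were divided by the column total to give CPM, with exact 95% Poisson intervals, and shares with exact Clopper-Pearson intervals. Counted length was recovered from counts and deposited RPKM. At the implied depth, it was whole within 0.05 bases for 100% of the genes checked. That depth was itself inferred from these values, so the 100% is no independent check. The genes checked were not all protein_coding genes, as those listed at 0 have no counted length. For 36 genes with 100 or more footprints counted length was under 100 bases, and for 6 it exceeded the span. Of the identifiers, 13668 matched the gene name table, used for older symbols. Start sequences are from RefSeq, and gene levels use no coordinates of that build.

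The set of genes and all lists were chosen with earlier results of these data known; the lists of collagen modifying enzymes, ER translocation and N-glycosylation proteins, and lysosomal proteins were written after values were seen. Genes named were the 30 with most footprints, the 15 of highest RPKM, up to 4 of each class, lineage markers at 100 or more or at 3 or fewer footprints, and abundant genes at 3 or fewer; others given beside them were chosen after their values were seen. Alternatives changed the unit, denominator, minimum and the genes included. Calculations were tested on simulated data. Amino acid demand was not computed, as no protein table was used. Python 3.11.15, numpy 2.4.6, pandas 2.3.3, scipy 1.17.1 and matplotlib 3.10.9 were used. Some genes that the rule names are not reported here.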

Additional observations from a re-analysis of the deposited data

Results flagged for a closer look

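Footprints were also counted in genes outside the protein_coding class. Genes of the polymorphic_pseudogene class had 826 footprints, of which LEPREL2, a relative of the collagen prolyl hydroxylases, had 531, TMEM120A 268 and TSPAN10 18. Genes of the processed_transcript class had 565, of which KMT2B, which encodes a histone methyltransferase, had 221, XXbac-B461K10.4 219 and RP11-97O12.7 122. AP000318.2 held all 131 footprints of the lincRNA class. The TR_V_gene class, T cell receptor variable segments, had 8, of which TRBV7-3 had 6. These were flagged because they exceed the 3 counts that a 0 would allow and lie outside the genes described; the 1997 antisense genes had no footprint.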

How the results depend on the processing

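With 1 library, leaving out a replicate could not be run, and no paired analysis was possible because each group has 1 library and no result comes from a test; footprints per residue and residue demand were not run. Set in shares of deposited RPKM, the 10 leading genes held 9.84%, the 100 leading 31.2%, and 331 genes held 50%; histones held 9.92%, ribosomal proteins 5.41%, glycolytic enzymes 2.34%, secreted matrix glycoproteins 1.62% and collagens 0.572%. Without genes overlapped on the opposite strand, the 10 and 100 leading genes held 7.69% and 26.6%, and without ribosomal proteins and elongation factors 8.28% and 24.8%. Without the member with most footprints, ribosomal proteins held 2.04%, glycolytic enzymes 1.86%, collagens 2.13%, glycoproteins 2.35% and histones 2.24%. Without genes of counted length under 100 bases, an alternative chosen after seeing the data, these classes held 2.22%, 2.51%, 3.48%, 4.52% and 2.37% of footprints. Shares of RPKM were not recomputed without such genes. HIST1H2AM, with 25126 RPKM on 47 counted bases, is among them, so the RPKM shares of the histones and of the 10 leading genes are uncertain. At a minimum of 20 footprints, 2 epithelial junction genes, 2 gastric genes and 6 transition factors passed; at 500 footprints, 0 epithelial junction genes and 0 transition factors did; at the 9.52 RPKM that is the median of genes with any footprint, 4 transition factors did. Over all values recomputed, 112 stayed within the counting interval or 1.5 times the count and 100 moved beyond it. Much of this tally was fixed in advance. All 38 values over the protein_coding total stayed, as that total is 99.96% of the library. All 36 values without the leading member moved, as counting intervals are narrow. The tally is thus no measure of robustness. Counting error is relatively largest for genes under 100 footprints.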

Other observations

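Lysosomal proteins held 0.821% of the library, and 19 of 22 genes had 100 or more footprints. Their list was written after values were seen, so the count only describes the genes chosen. PSAP, the precursor of the saposins that help degrade sphingolipids, had 7764 footprints (728 RPKM), the protease CTSD 4158 (467 RPKM), CTSB 2717 and NPC1, a cholesterol transporter of the lysosome, 2613. The membrane proteins LAMP1 and LAMP2 had 2271 and 1902. The collagen-degrading cathepsin CTSK had 2 and CTSS 66.

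The share of protein_coding genes with 100 or more footprints varied by chromosome. It was 50.9% on chromosome 20 (198 of 389 genes, median 14.7 RPKM) and 49.6% on chromosome 21 (70 of 141, median 10.1 RPKM), against 37.9% of all genes. Chromosome 19 was lowest, with 309 of 1031 genes and a median of 3.39 RPKM.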
